A study of Mus musculus with 6 samples.

Results

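The comparison set mProx24 cells under triple stimuli (high glucose, palmitate and low oxygen together) against mProx24 cells under high glucose alone, and so reads what palmitate and low oxygen added to, or took from, the high glucose miRNA profile. mProx24 is a line of proximal tubular cells from the kidney of C57B6 mice, grown in medium with 10% fetal calf serum. The 2 arrays, of 6 in the series, were chosen by their titles, and all 1247 mouse miRNAs on the array were compared. Of these, 181 were detected on both arrays, meaning that at least 0.5 of the spots of a probe were well above background.

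The triple stimuli culture had high glucose, 1% oxygen for 12 h and 150 µM palmitate bound to 0.15% albumin for 9 h. The triple stimuli plus rapamycin culture also had 0.4 µg/ml rapamycin, an inhibitor of the mTORC1 kinase, for 12 h before palmitate. The high glucose culture was kept at 20% oxygen and had PBS in place of palmitate. The other arrays were hypoxia (1% oxygen, normal glucose and PBS), palmitate (20% oxygen and normal glucose) and control (20% oxygen, normal glucose and PBS). The labels give neither the glucose concentrations nor the length of the glucose treatment, and they name albumin only with palmitate, so an effect of albumin cannot be told apart from that of palmitate. Triple stimuli and high glucose differ by both low oxygen and palmitate, and with this pair of arrays the shares of the 2 agents cannot be told apart.

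Each culture gave 1 array, hybridised with 100 ng of RNA, so no difference below could be checked against replicates and none has a p-value. Calls were made among miRNAs detected on both arrays, with a minimum difference of 1.5-fold that also had to exceed 2 standard errors. These errors come from the spots within each array. All arrays lay on 1 slide and were scanned on 1 day. The arrays at 1% oxygen all lay in slide row 2 and those at 20% oxygen in row 1, so slide row and oxygen cannot be told apart.

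The label of the high glucose array was in conflict within the deposit. The deposited value table gives the signals of the high glucose scanner file under palmitate, and those of the palmitate scanner file under high glucose. The values below follow the scanner files, and those with the 2 labels exchanged are given beside the results they touch. Triple stimuli matched its own column in the table, at 73.0% of the miRNAs the scanner software detected.

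miRNAs are short RNAs that guide Argonaute proteins to messenger RNAs, mostly through pairing of bases 2 to 8, the seed, and so reduce the output of those messages. miR-210-3p is the best known target of hypoxia-inducible factor among miRNAs, and it represses genes of mitochondrial metabolism. Proximal tubular cells rely on mitochondrial oxidation of fatty acids, and glucose, fatty acid load and low oxygen are stresses that meet in the diabetic kidney.

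The mature sequences below are those of the called miRNAs with an entry in RefSeq, and of 2 further detected miRNAs that share a seed with one of them. They are printed 5′ to 3′ with the seed in capitals, so that base composition and seeds can be compared.
miR-210-3p: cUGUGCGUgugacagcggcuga
miR-370-3p: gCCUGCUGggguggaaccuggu
miR-721: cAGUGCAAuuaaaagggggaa
miR-130a-3p: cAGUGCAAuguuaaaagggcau
miR-301a-3p: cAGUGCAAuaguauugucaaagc
miR-5126: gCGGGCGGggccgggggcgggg
miR-680: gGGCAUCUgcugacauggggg
miR-2861: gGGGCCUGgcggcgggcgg
miR-3102-5p: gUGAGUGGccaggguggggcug
miR-135a-1-3p: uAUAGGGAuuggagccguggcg
miR-149-3p: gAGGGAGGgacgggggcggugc
miR-5131: cGGCGCCCcacggagccccgagc

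On the RefSeq annotation of build GRCm38.p6, miR-210-3p lies at chr7:141221407-141221428 on the minus strand, in no other annotated gene. miR-370-3p lies at chr12:109618305-109618326 on the plus strand, within the span of Rian. The share of the other detected miRNAs within protein-coding genes was not counted, so the next count is not a result about the lower miRNAs. Of the 8 lower miRNAs with a RefSeq sequence, 6 lie within the span of a protein-coding gene. These are miR-721 in Cux1 at chr5:136375777-136375797, miR-5126 in Dner at chr1:84695890-84695911, miR-3102-5p in Arhgef17 at chr7:100882388-100882409, miR-149-3p in Gpc1 at chr1:92850421-92850442, miR-5131 in Ddhd1 at chr14:45657972-45657994 and miR-135a-1-3p in Glyctk at chr9:106154179-106154200. The last also lies within the noncoding gene D030055H07Rik. miR-2861 lies at chr2:32712819-32712837 and overlaps no other gene. miR-680 has 3 annotated loci, at chr6:129691541-129691561, chr12:35194849-35194869 and chrX:144297790-144297810, which the array cannot separate.

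Most detected miRNAs had similar signals with triple stimuli and with high glucose. Of the 181 miRNAs, 2 were higher with triple stimuli (1.1% of those compared) and 10 were lower (5.52%), and 169 were not called. The median difference, triple stimuli minus high glucose, was 0.02 on the log2 scale, with quartiles of -0.09 and 0.14. Within 1.2-fold lay 137 miRNAs, or 75.7%. The levels on both arrays had a Pearson correlation of 0.98 over the 181 miRNAs, a description of values that share their probes. The spread between miRNAs, a robust SD of 0.18, was wider than the median spot error of a difference, 0.05.

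**Figure D1:**
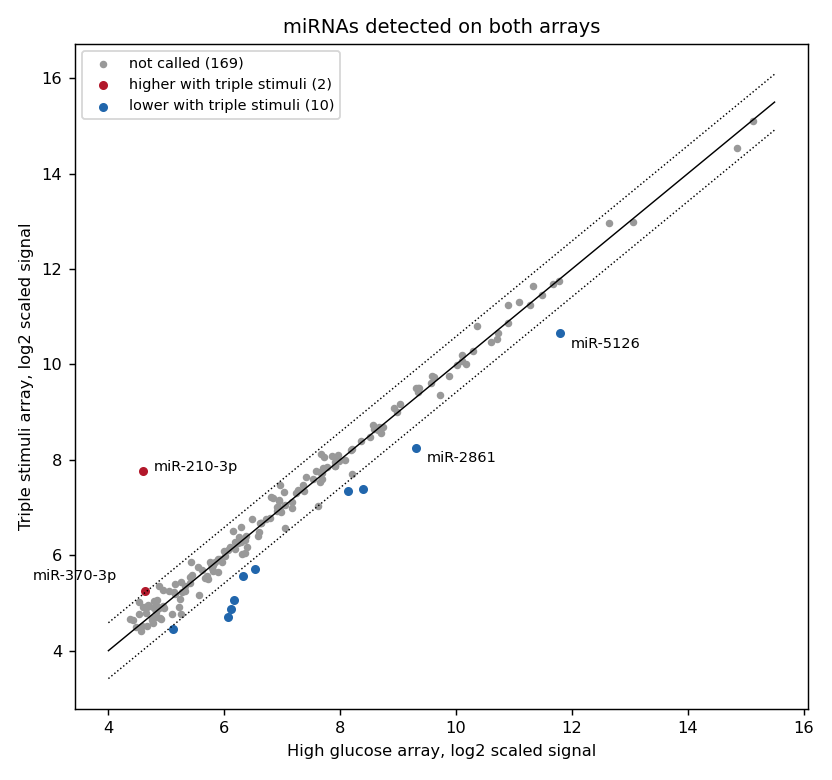
Log2 scaled signal on the triple stimuli array (vertical) against the high glucose array (horizontal) for the 181 miRNAs detected on both. The solid line marks equal signal and the dotted lines 1.5-fold; miR-210-3p lies far above the lines and 10 miRNAs lie below them.

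Scaled signals are the scanner's background-subtracted intensities after each array was brought to a common 75th percentile. That percentile was 346 with triple stimuli and 360 with high glucose before scaling. The share of spots well above background was 12.7% with triple stimuli and 12.9% with high glucose, within the range of 11.4% to 13.3% over the 6 arrays. miRNAs detected numbered 185 with triple stimuli and 189 with high glucose. Detected on 1 of the 2 arrays were 4 with triple stimuli and 8 with high glucose, and the highest of their bounds was at least 1.35-fold, so none reached the limit of 1.5-fold.

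The labelled cell type was set against its markers. Detected were 7 of 12 kidney epithelium miRNAs, which are both miR-10 forms and the miR-30 members a to e. Typical of proximal tubule or kidney, but not detected on any array, were miR-204-5p, miR-215-5p, miR-194-5p and miR-192-5p. Neither were the 6 miRNAs of the epithelial miR-200 list. On the array, 5 of 6 blood markers, 2 of 2 endothelial markers and 5 of 5 fibroblast and smooth muscle markers were present, and 0 of these were detected on any of the 6 arrays.

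miR-210-3p carried the largest difference between the 2 arrays. Its scaled signal was 219 with triple stimuli, 206 with triple stimuli plus rapamycin, 24.1 with high glucose, 260 with hypoxia, 21.2 with palmitate and 24.7 in the control. The 3 arrays at 1% oxygen stood high and the 3 at 20% oxygen stood low, with no overlap. With triple stimuli it was 9.08-fold higher than with high glucose (log2 difference 3.18, spot SE 0.08), and 3.26-fold higher (log2 1.71) with normexp background correction, which adds an offset to every signal. It missed the detection limit with palmitate, where 5 of 20 spots of its brighter probe were well above background, and in the control, where 8 of 20 were.

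The spots of miR-210-3p did not overlap between the arrays. With triple stimuli the 19 spots of its brighter probe ran from 199 to 242, with a median of 220 and every spot well above background. With high glucose 20 spots ran from 13 to 35.4, with a median of 23.1, and 12 of them were well above background. The second probe, on which only 2 of 17 spots were well above background with high glucose, averaged 154 with triple stimuli and 16.6 with high glucose. The high glucose signal therefore lay near the detection limit, and where at least 0.9 of the spots had to be well above background the difference became a bound of at least 8.22-fold. Against the palmitate scanner file, which the value table calls high glucose, miR-210-3p was at least 9.44-fold higher.

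**Figure D2:**
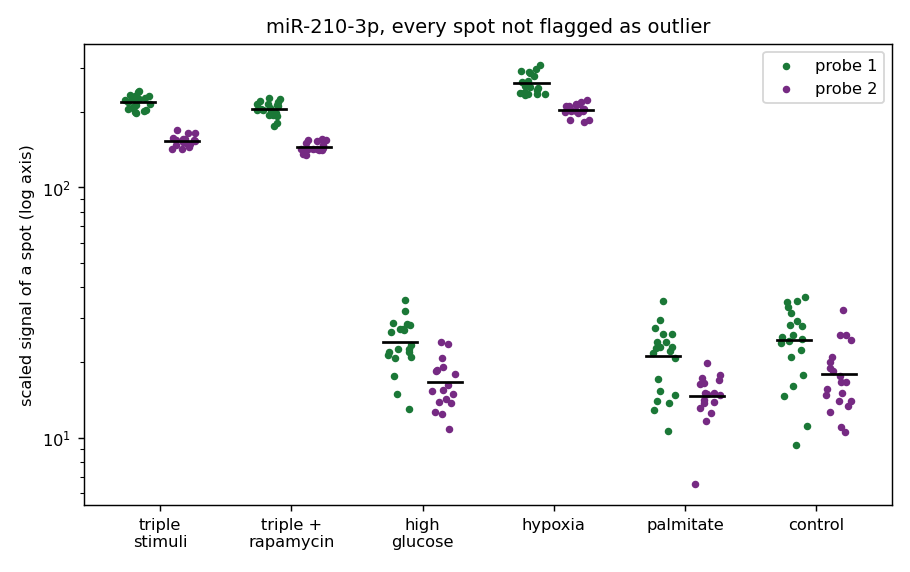
Scaled signal of each spot of the 2 miR-210-3p probes (log axis) on the 6 arrays, with black bars at the mean of a probe. All spots of the 3 arrays at 1% oxygen, triple stimuli included, lie above all spots of the 3 arrays at 20% oxygen.

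miR-370-3p was the other miRNA called higher, and only just. In liver cells it is known to repress carnitine palmitoyltransferase 1A, the enzyme that admits long fatty acids to mitochondria. Its signal was 38.1 with triple stimuli, 29.7 with triple stimuli plus rapamycin, 24.7 with high glucose, 28.1 with hypoxia, 28.8 with palmitate and 30.1 in the control. Triple stimuli was the highest of the 6 arrays and high glucose the lowest. The difference was 1.54-fold (log2 0.63, spot SE 0.08), and its 2 probes gave 0.63 and 0.61. It fell under 1.5-fold in 7 of 12 other ways of processing the same 2 arrays, to log2 0.21 with normexp background correction.

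All 10 lower miRNAs were highest on the high glucose array, as were 48 of the 181 (26.5%). In all 10 triple stimuli plus rapamycin stood between high glucose and triple stimuli, as it did with high glucose on top in 31 of the 181 (17.1%). Both counts over the 181 include the 10. This order can occur only in the 81 miRNAs with a difference below 0. The 10 were chosen for a high signal on the high glucose array relative to triple stimuli, so part of the order follows from the choice. In 9 of 10, triple stimuli stood above hypoxia, palmitate and control. The share of the 181 that did so was not counted, so this cannot be read as particular to the 10. The exception was miR-5131, whose log2 signal with triple stimuli (4.45) lay below the lowest detected signals of those 3 arrays (4.47 to 4.54), to which undetected signals were raised. On the hypoxia, palmitate and control arrays 5 of the 10 were not detected. For these 5, miR-5131 among them, triple stimuli was set against such raised signals. Detected on all 6 arrays were 4 of the 10, beside 154 of the 181. The rest of the 10 were not detected in the control. At the level of single probes, 20 of 20 probes detected on both arrays were lower with triple stimuli. Of the 10 miRNAs, 3 rest on 1 such probe, namely miR-6378, miR-149-3p and miR-5131. The 20 include the probes on which the 10 were called, which were lower by that choice. With normexp background correction 4 of the 10 were called, namely miR-5126, miR-2861, miR-3102-5p and miR-6378.

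The brightest of them were miRNAs known by high miRBase numbers, of which few have a described role. miR-5126 had a signal of 1615 with triple stimuli, 2501 with triple stimuli plus rapamycin, 3566 with high glucose, 782 with hypoxia, 641 with palmitate and 616 in the control. It was 2.21-fold lower with triple stimuli than with high glucose (log2 -1.14, spot SE 0.01), and its 2 probes gave -1.14 and -1.09. miR-2861, known in mouse osteoblasts as a repressor of the histone deacetylase Hdac5, had 306 with triple stimuli, 468 with triple stimuli plus rapamycin, 633 with high glucose, 153 with hypoxia, 130 with palmitate and 123 in the control. Both stood at less than the high glucose signal and at more than the signal of each array without high glucose. For miR-2861 the difference was 2.07-fold (log2 -1.05, spot SE 0.02).

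miR-3102-5p followed the same order, with 167 with triple stimuli, 230 with triple stimuli plus rapamycin, 338 with high glucose, 106 with hypoxia, 81.8 with palmitate and 77.9 in the control. It was 2.02-fold lower with triple stimuli (log2 -1.02, spot SE 0.03). miR-6378 had 164 with triple stimuli, 180 with triple stimuli plus rapamycin, 282 with high glucose, 97.3 with hypoxia, 106 with palmitate and 105 in the control. Its difference was 1.72-fold (log2 -0.78, spot SE 0.04). These 4 miRNAs were the ones detected on all 6 arrays. miR-5131, the faintest, had 21.9 with triple stimuli, close to the lowest detected signal of that array (21.2), 25.9 with triple stimuli plus rapamycin and 34.5 with high glucose. At signals of 14.8 with hypoxia, 14.6 with palmitate and 14.3 in the control it was not detected. It was 1.58-fold lower (log2 -0.66, spot SE 0.13) and fell under 1.5-fold in 7 of 11 other ways of processing the same 2 arrays.

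miR-721 and miR-290-5p were faint, and neither reached 1.5-fold with normexp (log2 -0.50 for miR-721 and -0.53 for miR-290-5p). miR-721, whose seed is that of the miR-130 and miR-301 family, had 29.5 with triple stimuli, 39.9 with triple stimuli plus rapamycin and 69.2 with high glucose, a 2.34-fold difference (log2 -1.23, spot SE 0.08). The other detected miRNAs with its seed went the other way without reaching the limit: miR-130a-3p had 274 with triple stimuli and 250 with high glucose (log2 0.13, spot SE 0.04), and miR-301a-3p had 32.4 with triple stimuli and 22.9 with high glucose (log2 0.50, spot SE 0.13). miR-290-5p belongs to a cluster known for its high level in mouse embryonic stem cells. It had 26.1 with triple stimuli, 41.2 with triple stimuli plus rapamycin and 66.6 with high glucose, a 2.55-fold difference (log2 -1.35, spot SE 0.12). Neither miR-721 nor miR-290-5p was detected with hypoxia, palmitate or in the control, at signals of 5.67 to 16.0.

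miR-680 had 33.6 with triple stimuli, 46.5 with triple stimuli plus rapamycin and 72.0 with high glucose, a 2.14-fold difference (log2 -1.10, spot SE 0.11) shown by all 4 of its probes, whose log2 differences ran from -1.25 to -0.995. miR-135a-1-3p and miR-149-3p come from the other arm of the hairpins of miR-135a and miR-149. miR-135a-1-3p had 52.5 with triple stimuli, 79.3 with triple stimuli plus rapamycin and 92.3 with high glucose, a 1.76-fold difference (log2 -0.81, spot SE 0.09). miR-149-3p had 47.3 with triple stimuli, 63.7 with triple stimuli plus rapamycin and 79.7 with high glucose, a 1.68-fold difference (log2 -0.75, spot SE 0.06). miR-135a-1-3p was detected with hypoxia (37.1) and palmitate (29.7) and not in the control (27.5). miR-149-3p and miR-680 were not detected on those 3 arrays.

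**Figure D3:**
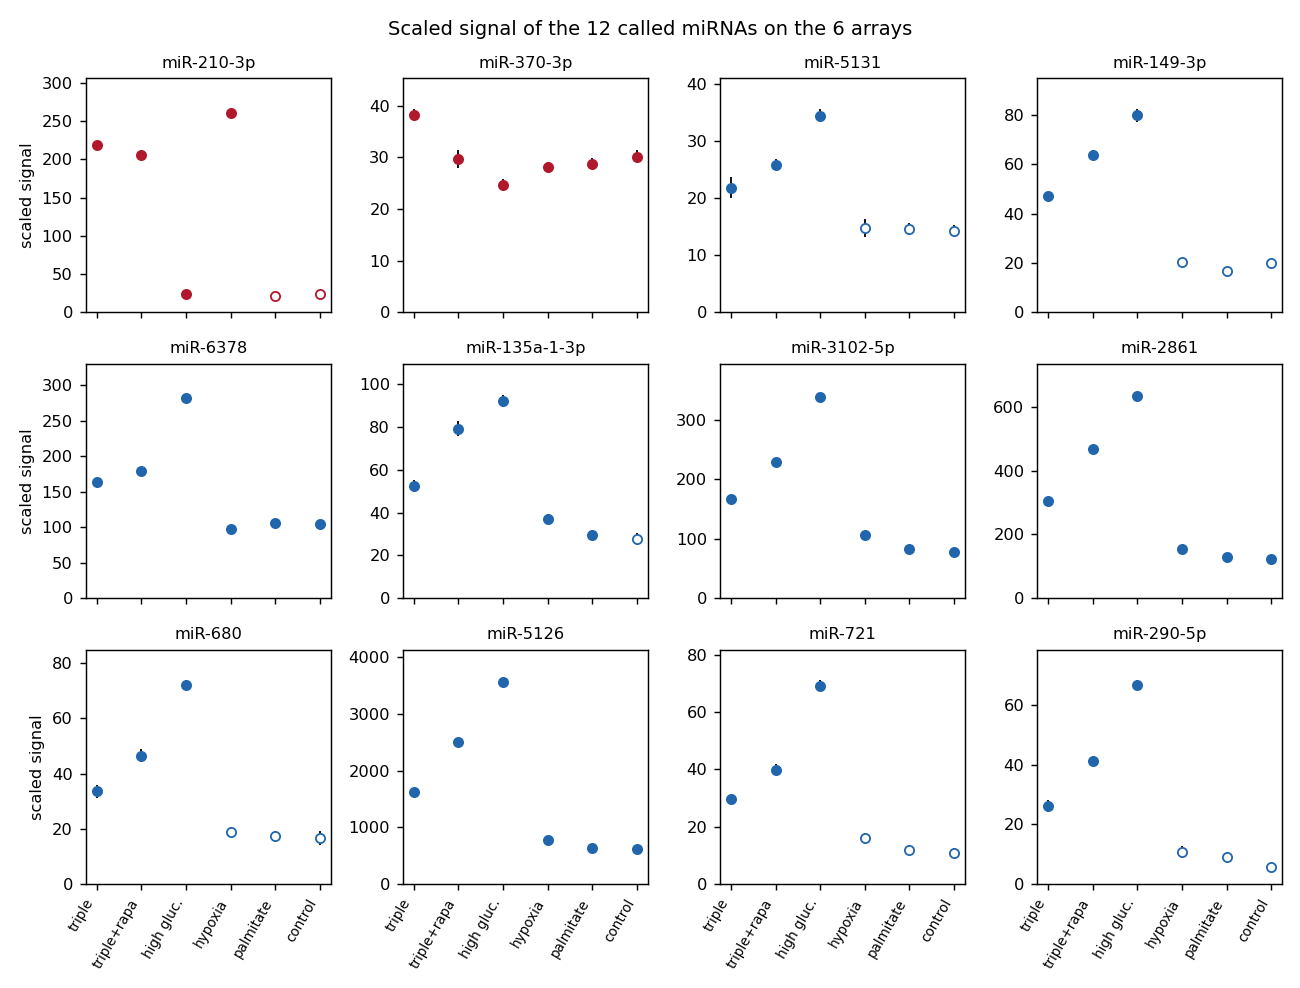
Scaled signal of the 12 called miRNAs on the triple stimuli, triple stimuli plus rapamycin, high glucose, hypoxia, palmitate and control arrays; red panels were higher and blue panels lower with triple stimuli than with high glucose. Filled points were detected and open points were not, and bars are the standard error over spots; in each blue panel the high glucose point is the highest of the 6.

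Just inside the limit lay miR-5131 and miR-370-3p, and just outside it lay miR-211-3p at -0.58 (132 with triple stimuli and 197 with high glucose) and miR-1897-3p at 0.51 (177 with triple stimuli and 125 with high glucose). They were followed by miR-2137 at -0.50, miR-301a-3p, miR-324-5p at -0.49 and miR-6538 at -0.49. miR-211-3p, miR-2137 and miR-6538 had the order of the lower miRNAs, high glucose over triple stimuli plus rapamycin over triple stimuli. miR-324-5p did not, with 27.2 with triple stimuli, 24.5 with triple stimuli plus rapamycin and 38.2 with high glucose. Triple stimuli plus rapamycin, compared with the same high glucose array, had 1 of 187 miRNAs higher (0.535%) and 7 lower (3.74%). Of the 10 lower miRNAs, 4 were among those 7, namely miR-6378 (-0.65), miR-680 (-0.63), miR-721 (-0.79) and miR-290-5p (-0.69). Both comparisons rest on the 1 high glucose array.

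The 10 lower calls depend on which array is high glucose. With the labels exchanged, triple stimuli had 12 of 160 miRNAs higher (7.5%) and 0 lower (0.0%). Of the 10 miRNAs above, 5 were then called higher, led by miR-5126 (log2 1.33, spot SE 0.02), miR-2861 (1.24, spot SE 0.03) and miR-3102-5p (1.03, spot SE 0.03), and the other 5 were detected with triple stimuli alone. Of those 5, miR-5131 had a signal with triple stimuli under the lowest detected signal of the exchanged array, so it gave no bound. The direction for miR-210-3p was the same under both labellings.

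The control, hypoxia and palmitate arrays share no array with the comparison and show each added stimulus at normal glucose. For the 154 miRNAs detected on all 6 arrays, which leaves out miR-210-3p, triple stimuli minus high glucose was set against the sum of hypoxia minus control and palmitate minus control. Its slope on that sum was 0.0061, with a Pearson correlation of 0.0073 and a Spearman correlation of 0.19. These are descriptions across miRNAs, which share the control array and the scaling. miR-210-3p, outside this set, was at least 10.5-fold higher with hypoxia than in the control and below detection with palmitate and in the control. The sum itself ran from -1.01 to 0.64. Of the 10 lower miRNAs, 4 are in this set. The lowest differences in it were those of miR-5126 (-1.14 at a sum of 0.40), miR-2861 (-1.05 at 0.39) and miR-3102-5p (-1.02 at 0.52). The slope without them was not fitted. With the labels exchanged the slope was 0.36.

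miRNAs called for a single stimulus at normal glucose were not among the 12 called here. Hypoxia against control had 0 of 162 miRNAs higher (0.0%) and 3 lower (1.85%), beside the bound for miR-210-3p. The 3 were miR-714 (-0.80 with hypoxia, 0.07 with triple stimuli minus high glucose), miR-5107-5p (-0.69 and 0.01) and miR-709 (-0.63 and -0.18). Palmitate against control had 0 of 155 higher (0.0%) and 4 lower (2.58%). miR-5097 had a log2 difference of -0.79 with palmitate against control and of 0.45 with triple stimuli against high glucose. miR-5100 had -0.70 and 0.45, miR-212-3p -0.76 and 0.19, and miR-6366 -0.81 and -0.02 for the same 2 comparisons. None of the 7 reached the limit between triple stimuli and high glucose. As only 1.1% of the 181 were called higher and 5.52% lower there, this absence is not a result about the 7. miR-210-3p, which is among the 12, stands outside the 7 because its difference with hypoxia is a bound.

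Over all 181 miRNAs 1.1% were called higher and 5.52% lower. Of the low oxygen list's 18 members on the array 14 were detected on both arrays, with 1 higher (miR-210-3p), 0 lower and a median of 0.03, beside 0.02 over all 181. miR-322-5p, the mouse counterpart of human miR-424, was next at 0.35 (90.7 with triple stimuli and 71.1 with high glucose), and miR-20b-5p was lowest at -0.09. miR-155-5p had 193 with triple stimuli and 186 with high glucose, and miR-21a-5p, known to increase in injured kidney, had 3306 with triple stimuli and 3251 with high glucose. Apart from miR-210-3p, no member of the list exceeded miR-322-5p or reached the limit.

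The lists tied to kidney identity and fibrosis had 0 members called, beside the 1.1% higher and 5.52% lower over all miRNAs, which in lists this short is not a result about them. The 7 detected kidney epithelium miRNAs had a median of 0.04, from -0.12 for miR-30c-5p to 0.16 for miR-10a-5p. The miR-29 family, whose members repress collagen messages, had 3 of 3 detected, from -0.17 for miR-29c-3p to -0.04 for miR-29a-3p, with a median of -0.05. The fibrosis and diabetic kidney list had 7 of 20 detected, a median of 0.02 and a highest member, miR-23b-3p, at 0.09. All 9 let-7 miRNAs, which restrain growth genes such as Hmga2, were detected. They had a median of -0.03, from -0.13 for let-7g-5p to 0.17 for let-7e-5p.

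The counts for growth and metabolism lists stand beside the same 1.1% higher and 5.52% lower. miR-370-3p was the 1 call of the 12 detected members of the fatty acid and glucose metabolism list, whose median was 0.02 and lowest member miR-107-3p at -0.08. The mTOR targeting list, which holds the miR-99, miR-100 and miR-125 miRNAs, had 8 detected, 0 called and a median of 0.12, from -0.14 for miR-99a-5p to 0.21 for miR-125b-5p (2531 with triple stimuli and 2183 with high glucose). In the miR-17/92 family and its paralogs, which MYC drives, 10 were detected and 0 called. Their median was 0.04, from -0.14 for miR-17-5p to 0.44 for miR-19a-3p (58.3 with triple stimuli and 42.9 with high glucose). The p53 list had 5 detected, 0 called and a median of 0.01, with miR-107-3p lowest and miR-15b-5p highest at 0.11.

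Of the inflammation list 3 were detected, with 0 called and a median of 0.06, from 0.02 for miR-21a-5p to 0.19 for miR-212-3p. This count and those that follow stand beside 1.1% higher and 5.52% lower over all 181. In lists this short, 0 calls is not a result about them. Products of the ribosomal RNA precursor that carry miRNA names had 4 detected, 0 called and a median of 0.0012, from -0.10 for miR-712-5p to 0.15 for miR-5105. The muscle miRNA miR-206-3p, the 1 detected of 6 muscle, neuron and hepatocyte markers, had 108 with triple stimuli and 88.7 with high glucose (0.28). miRNAs with a miRBase number of 1000 or above, as a class, had 55 detected on both arrays, with 0 higher and 5 lower and a median of 0.0038. The 126 with lower numbers had 2 higher and 5 lower and a median of 0.02.

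**Figure D4:**
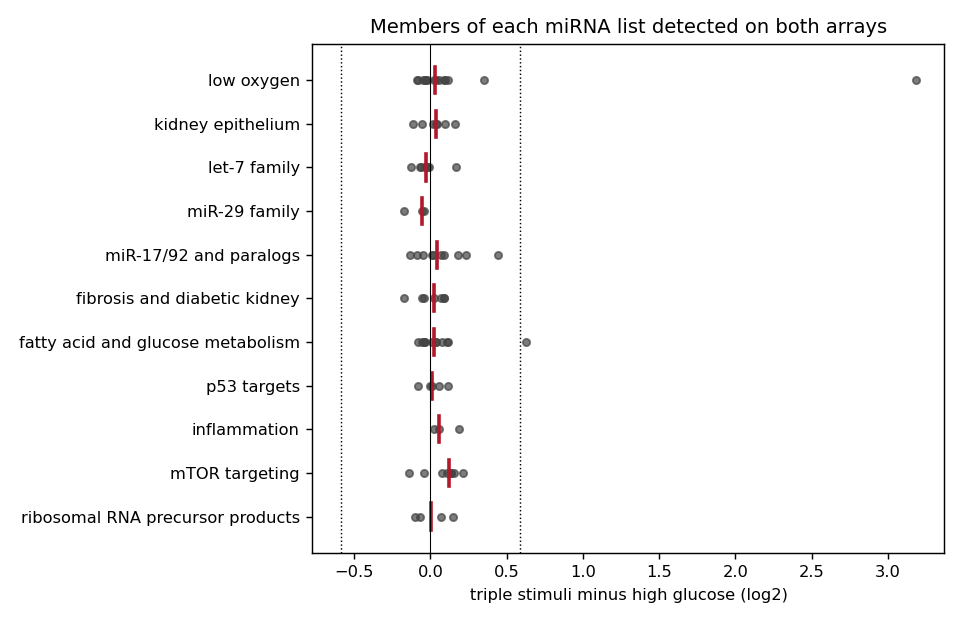
Log2 difference, triple stimuli minus high glucose, of each miRNA detected on both arrays, by list; each point is a miRNA, red ticks are list medians and dotted lines mark 1.5-fold. The miRBase number class and the list with miR-206-3p alone are not drawn; among the lists drawn, medians lie between -0.05 and 0.12, and miR-210-3p at 3.18 and miR-370-3p at 0.63 are the points beyond the dotted lines.

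None of the 5 brightest miRNAs on the triple stimuli array was called. miR-6366 had 35389 with triple stimuli and 35901 with high glucose (-0.02). miR-3963 had 23711 with triple stimuli and 29569 with high glucose (-0.32). miR-5109 had 8130 with triple stimuli and 8519 with high glucose (-0.07). miR-3963, and miR-6243 in the other direction, lay outside 1.2-fold. miR-6243 had 7949 with triple stimuli and 6416 with high glucose (0.31). let-7f-5p had 3447 with triple stimuli and 3503 with high glucose (-0.02).

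The lower miRNAs were rich in G and C. The 8 with a RefSeq sequence had a median G plus C share of 77.3%, from 42.9% for miR-721 to 100% for miR-5126, while the 138 not called with a sequence had a median of 50%. A run of GGGG occurred in 6 of the 8 (75%), in 13 of the 138 not called (9.42%) and in 11.2% of the 1679 mature mouse miRNAs in RefSeq, searched on the miRNA strand. The 20 detected miRNAs with GGGG, which include those 6, had a median difference of -0.26, 4 of them above 0, and those without it 0.03. Sequences were found for 148 of the 181 miRNAs, or 81.8%.

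Over the detected set, the difference departed from 0 mainly at the highest G plus C shares. That set includes the lower miRNAs, so its values are not separate from theirs. Without miR-210-3p, the Pearson correlation between G plus C share and log2 difference was -0.42 and the Spearman correlation -0.26 over 147 miRNAs that share both arrays. The median difference was 0.05 for the 22 miRNAs under 40%, 0.01 for the 47 at 40% to 50%, 0.08 for the 33 at 50% to 60% and -0.03 for the 31 at 60% to 70%. The 14 miRNAs at 70% or more had a median of -0.36, with 12 below 0 and 5 of the lower calls. Composition also sets how strongly a probe binds, and its part in the differences was not tested.

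**Figure D5:**
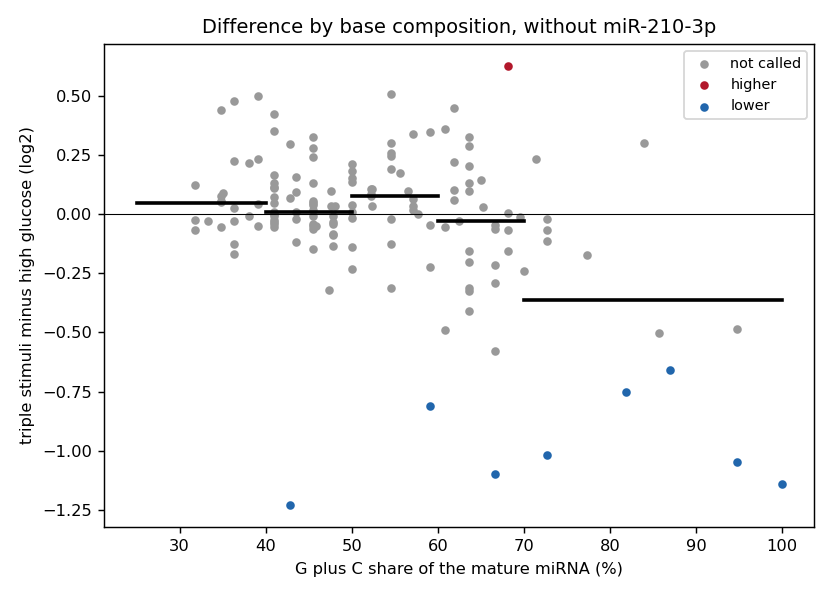
Log2 difference, triple stimuli minus high glucose, against the G plus C share of the mature miRNA (percent) for 147 miRNAs, with black bars at the median of each range of composition. The median is within 0.08 of 0 in the ranges below 70% and is -0.36 at 70% or more, where 5 of the 14 miRNAs are lower calls.

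The miRNAs whose signals over the 6 arrays were most like miR-210-3p, by Pearson correlation of log2 signals, were miR-350-3p (0.95), miR-322-5p (0.91) and miR-224-5p (0.90), taken from 197 detected miRNAs. miR-350-3p had 150 with triple stimuli, 136 with triple stimuli plus rapamycin, 112 with high glucose, 149 with hypoxia, 106 with palmitate and 119 in the control. As the 3 were chosen for this likeness, their signals over the arrays are a description. The differences between triple stimuli and high glucose were 0.42 for miR-350-3p, 0.35 for miR-322-5p and 0.30 for miR-224-5p (95.9 with triple stimuli and 78.1 with high glucose), all under the limit of 1.5-fold.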

How the data were processed

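Spots were quantified by Agilent Feature Extraction 10.7.3.1, per the file headers, with background subtracted and outlier spots marked. The deposited spot values are intensity values on a linear scale, with no normalisation between arrays. The deposited value table holds a linear signal per miRNA, which for 68.7% to 73.5% of detected miRNAs equalled the scanner software's miRNA total over a constant per array, to 0.1%. The sources used here do not say how that constant was set, and the values are not centred. Its column medians, which are also its floors, run from 0.00341 to 0.00475. Its high glucose column matched the palmitate scanner file for 70.9% of miRNAs and its palmitate column the high glucose scanner file for 70.6%.

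A probe's value was the mean of its spots not flagged as outliers (median 18 spots, 3105 probes, 1 to 4 per miRNA). No spot was saturated. Arrays were scaled to the 75th percentile over 281 probes detected on all 6, floored at their lowest detected signal and moved to log2, and the brightest probe stood for each miRNA. Python 3.11.15 (numpy 2.4.6, pandas 2.3.3) was used, with limma 3.58.1 in R 4.3.3 for normexp. For a miRNA detected on 1 array, the bound sets its signal against the higher of the dimmer array's own signal and floor. Precision is limited by 1 array per group.

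The comparison, the 17 lists and the tests were chosen with earlier results of these data known. Named are all called miRNAs, bounds of at least 1.5-fold, the 5 brightest with triple stimuli, the highest and lowest of each list and the 3 most like miR-210-3p. miRNAs called for a single stimulus, those next to the limit, those sharing a seed and further list members were named after their values were seen. Alternatives covered scaling, normalisation, background, summary, detection, fold limit, spots and labels.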

Additional observations from a re-analysis of the deposited data

How the results depend on the processing

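No paired analysis was possible because each group has 1 array and the groups share fewer than 2 replicate numbers. The precision is that of 1 array per group, and signals near 21 lie at the detection limit. The higher count was 1, with miR-210-3p alone, under scaling over all probes, scaling to the median, no scaling, quantile normalisation, normexp (offset 50), the summed signal and the 2-fold limit. It was 1, miR-370-3p, among the 154 miRNAs detected on all 6 arrays, and 4 with the mean of all probes. Where 0.9 of spots had to be well above background it was 0, since miR-210-3p then had a bound. With spike-in scaling it was 3, with miR-1897-3p added. Odd-numbered spots gave 3, with miR-6238 added, and even-numbered spots 2. Spike-in control probes had a median log2 difference of -0.13 between the scaled triple stimuli and high glucose arrays. The lower count was 4 with normexp, 4 among miRNAs detected on all 6 arrays and 6 with the 2-fold limit, and 7 to 11 in the other settings that keep the scanner labels. In these settings all 10 lower miRNAs stayed below 0, except that 4 could be read among miRNAs detected on all 6 arrays. miR-210-3p ran from 1.71 with normexp to 3.99 with the value table, past the limit wherever it had a value. The median over all miRNAs ran from -0.06 to 0.10.

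Both counts changed with the label of the high glucose array. The value table as labelled gave 18 higher and 3 lower, and the exchanged scanner labels 12 higher and 0 lower, and the slope on the single stimuli was 0.36 after the exchange. The value table has no spot errors, so its calls used the fold limit alone. Its values were not rescaled, and a miRNA counted as detected above the floor of its column. Its counts thus differ from the main ones by more than the label. In the value table the lower miRNAs turned to 1.2 (miR-135a-1-3p), 1.33 (miR-149-3p), 0.92 (miR-2861), at least 2.42 (miR-290-5p), 1.07 (miR-3102-5p), 1.13 (miR-5126), at least 1.25 (miR-5131), 0.48 (miR-6378), 0.74 (miR-680) and at least 2.34 (miR-721). With exchanged scanner labels they turned to 0.82 (miR-135a-1-3p), at least 1.03 (miR-149-3p), 1.24 (miR-2861), at least 0.17 (miR-290-5p), 1.03 (miR-3102-5p), 1.33 (miR-5126), 0.63 (miR-6378), at least 0.53 (miR-680) and at least 0.35 (miR-721). miR-5131 did not turn: its difference there, -0.09, is between a signal near the limit and the floor of the other array, and gives no bound. List medians moved in the value table to -0.18 (low oxygen), -0.24 (kidney epithelium), -0.16 (fibrosis and diabetic kidney), -0.13 (mTOR targeting) and -0.063 (miR-206-3p alone). With exchanged labels they moved to -0.14 (kidney epithelium), 0.35 (inflammation), 0.092 (miR-206-3p alone) and 0.24 (miRBase number 1000 or above). By construction these settings set another array against triple stimuli.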
